A study of Sus scrofa with 11 samples.

Results

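The genes described are 8 components of the signalling route that runs from Fc receptors and integrins through Src family kinases and SYK in myeloid cells. They are the receptor FCGR1A, the adaptor FCER1G, the Src family kinases FGR and LYN, the kinases SYK, BTK and PTK2B, and the adaptor SKAP2. They were taken by name from a count table of 35670 genes, where each name stood on 1 row. RNA was sequenced from carotid artery of pigs (Sus scrofa) that ate a high-fat, high-calorie Western diet for 12 weeks and had an intravenous infusion every week. Treated animals received single-walled carbon nanotubes loaded with a chemical that blocks the phosphatase SHP-1, called SWNT-SHP1i, and controls received the nanotubes alone, called SWNT, both at 400 nM. The carrier and the diet were therefore shared by both groups, and the labels give no genotype, strain, sex or age. Counts were analysed for 5 SWNT-SHP1i animals (replicates 1, 2, 3, 5 and 6) and 5 SWNT animals (replicates 1 to 5). SWNT-SHP1i replicate 4 is labelled as having died before harvest and was not analysed here.

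SHP-1, the product of PTPN6, removes phosphate from tyrosines in this pathway. In human and mouse cells, where the roles given here were worked out, the route starts at the receptor. When immunoglobulin bound to a target cell clusters FCGR1A, Src family kinases phosphorylate the paired tyrosines (ITAM) in the tail of FCER1G, the common gamma chain. SYK docks on these tyrosines and passes the signal to phospholipase C, VAV exchange factors and the Tec family kinase BTK, which leads to engulfment and an oxidative burst. PTK2B and SKAP2 act where the same kinases meet integrins and the actin cytoskeleton. LYN also phosphorylates inhibitory receptors (ITIM) that recruit SHP-1, and the macrophage receptor SIRPA is one of these. The study asked whether blocking SHP-1 in macrophages lowers inflammation and the load of dying cells in the vessel wall. The counts report messenger RNA and not phosphorylation.

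Depth was 27593564 to 47718854 counts per library. The smooth muscle genes ACTA2, MYH11 and TAGLN were abundant in both groups, with mean levels of 8640, 7600 and 5940 CPM (counts scaled to library size) in SWNT-SHP1i and 11600, 12300 and 9470 CPM in SWNT. In SWNT-SHP1i replicate 6 the summed level of 18 macrophage markers was 3040 CPM, and 497 to 1750 CPM in the 9 others. Its 11 neutrophil markers summed to 355 CPM, of which MMP9 alone made up 221 CPM, against sums of 5.43 to 82.2 CPM elsewhere. Its 8 smooth muscle markers had the lowest sum, 17200 CPM. SWNT-SHP1i replicate 3 had 8.61% of its counts on the mitochondrial genome, against 1.16% to 2.97% in the others. Both libraries stand apart from the rest, and values without them are given below beside the results on the 8 genes. Fewer cells of a type and less RNA per cell cannot be told apart in these bulk samples.

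Each of the 8 genes had a higher mean level in carotid artery of SWNT-SHP1i animals than of SWNT animals, by 1.39-fold for LYN to 2.7-fold for FCER1G. No single gene passed the test. The quasi-likelihood test of edgeR with Benjamini-Hochberg adjustment called 0 of 15930 genes (0%) at an adjusted p under 0.05, and the adjusted p of each of the 8 was 0.997. At an unadjusted p under 0.05 it found 739 genes (4.64%), while DESeq2 called 1 gene and limma-voom 0 after adjustment. The 8 log2 fold changes had a median of 0.92, beside 0.01 over all genes tested, where 50.8% of genes were positive. FCER1G, SYK, PTK2B and BTK were higher at an unadjusted p under 0.05, beside 3.49% of all genes. That count depends on single libraries. With 1 left out it ran from 0 (SWNT-SHP1i replicate 6) to 8 (SWNT-SHP1i replicate 5, where 1583 of 16173 genes had such a p in either direction). Without replicate 6, all 8 fold changes stayed positive with a median of 0.54. None of the 8 then had an unadjusted p under 0.05, while 738 of 16192 genes had in either direction. Without replicates 3 and 6 the median was 0.46, again with all 8 positive and none below that p. With limma-voom, which gives libraries that deviate less weight, PTK2B was 0.55, SYK 0.69, FCER1G 0.95 and FCGR1A 0.5, the genes it moved most, while FGR was 0.91. In that fit 5 of the 8 had an unadjusted p under 0.05, namely LYN, FGR, SKAP2, FCER1G and BTK, beside 1385 of 15930 genes in either direction.

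**Figure D1:**
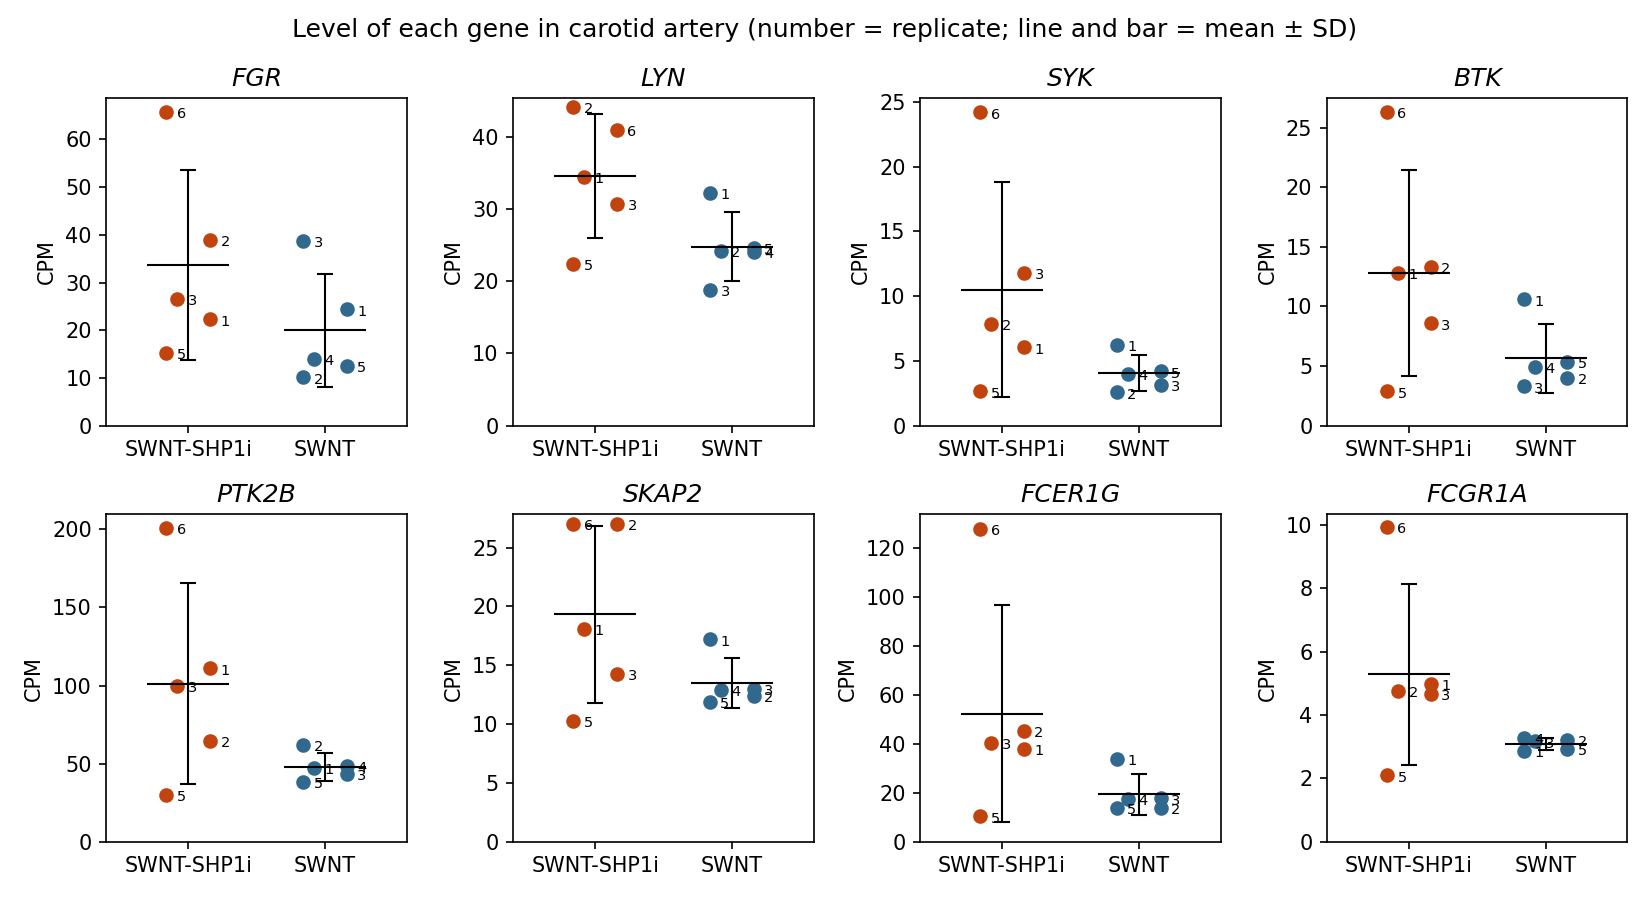
Level of each gene in CPM (vertical axis, from 0) in the 5 SWNT-SHP1i libraries (left) and the 5 SWNT libraries (right), with replicate numbers beside the points and mean ± SD as bars. In 7 of the 8 panels SWNT-SHP1i replicate 6 is the highest point or level with the highest, while SWNT-SHP1i replicate 5 lies among or under the SWNT libraries.

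The high-affinity receptor for immunoglobulin G, FCGR1A (ENSSSCG00000006678), lies on the minus strand of chromosome 4 from 99233611 to 99242586 in Sscrofa11.1, with 6 separate exon blocks. Its level was 4.98, 4.77, 4.67, 2.1 and 9.94 CPM in SWNT-SHP1i replicates 1, 2, 3, 5 and 6, and 2.86, 3.21, 3.17, 3.29 and 2.93 CPM in SWNT replicates 1 to 5. The SWNT libraries were thus nearly equal to each other, with a highest level 1.15 times the lowest, and 4 of the 5 SWNT-SHP1i libraries lay above all of them. The remaining one, replicate 5, was the lowest of all 10. The log2 fold change was 0.77 ± 0.39 (SE), with a 95% interval of -0.07 to 1.61. It was 0.42 without SWNT-SHP1i replicate 6. FCGR1A was the least abundant of the 8 by CPM, with 70 to 239 counts per library.

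FCER1G (ENSSSCG00000006357), the ITAM adaptor that FCGR1A and other Fc receptors need for surface expression and signalling, is a short gene on the minus strand of chromosome 4, from 89242472 to 89246450, with 701 bases of exon. It stood at 37.9, 45.5, 40.6, 10.4 and 128 CPM in SWNT-SHP1i replicates 1, 2, 3, 5 and 6. In SWNT replicates 1 to 5 it stood at 33.9, 13.9, 17.8, 17.6 and 13.8 CPM. Replicates 1, 2, 3 and 6 of SWNT-SHP1i were above every SWNT library, and SWNT replicate 1 was close under them and well above the other SWNT animals. Its log2 fold change of 1.43 ± 0.52 (95% interval 0.31 to 2.56) was the highest of the 8, and it was 0.79 without SWNT-SHP1i replicate 6. FCER1G also had the widest spread between SWNT-SHP1i animals, 12.3 times from lowest to highest.

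FGR and LYN, the Src family kinases among the 8, differed in how their levels were spread over animals. FGR (ENSSSCG00000003578; chromosome 6, minus strand, 84809542 to 84830361) is found in monocytes, macrophages and neutrophils. Its level was 22.3, 38.9, 26.5, 15.2 and 65.8 CPM in SWNT-SHP1i replicates 1, 2, 3, 5 and 6, and 24.4, 10.1, 38.7, 14 and 12.6 CPM in SWNT replicates 1 to 5. SWNT replicate 3 had nearly as much FGR as the second highest SWNT-SHP1i library, and only 2 SWNT-SHP1i libraries exceeded it. The log2 fold change was 0.76 ± 0.44 (95% interval -0.21 to 1.72). It was 0.37 without SWNT-SHP1i replicate 6 and 1.14 without SWNT replicate 3, where the unadjusted p was 0.0217. The labels give 4 animals of each group numbers that begin with B9, and over those animals it was 1.21.

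LYN (ENSSSCG00000006250; chromosome 4, minus strand, 75793492 to 75903496), which acts in both activating and inhibitory signalling, had the smallest fold change. It stood at 34.4, 44.1, 30.7, 22.4 and 41 CPM in SWNT-SHP1i replicates 1, 2, 3, 5 and 6, and at 32.2, 24.2, 18.8, 24.1 and 24.6 CPM in SWNT replicates 1 to 5. Its highest library was SWNT-SHP1i replicate 2 and its lowest SWNT replicate 3, the animal that was highest for FGR among the controls. The log2 fold change was 0.48 ± 0.22 (95% interval -0.01 to 0.97), and it was 0.41 without SWNT-SHP1i replicate 6, so that library moved LYN less than the other 7. The log2 ratio of FGR to LYN in CPM was -0.18 ± 0.52 (SD, n = 5) in SWNT-SHP1i and -0.47 ± 0.9 (SD, n = 5) in SWNT. Its highest value, 1.04, was in SWNT replicate 3, followed by 0.68 in SWNT-SHP1i replicate 6, and it was negative in the other 8 libraries.

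SYK (ENSSSCG00000009589; chromosome 14, plus strand, 2056670 to 2161171) is the kinase that docks on the phosphorylated ITAM. Its level was 6.05, 7.87, 11.8, 2.64 and 24.2 CPM in SWNT-SHP1i replicates 1, 2, 3, 5 and 6, and 6.22, 2.57, 3.17, 4.02 and 4.19 CPM in SWNT replicates 1 to 5. Replicates 3 and 6 of SWNT-SHP1i were the highest, replicate 1 lay just under SWNT replicate 1, and the groups overlapped. The log2 fold change was 1.38 ± 0.51 (95% interval 0.28 to 2.48). Leaving out SWNT-SHP1i replicate 6 gave 0.81, and leaving out replicates 3 and 6 gave 0.46, the steepest drop among the 8.

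BTK (ENSSSCG00000026742; chromosome X, minus strand, 82981515 to 83014573) is a Tec family kinase of B cells and myeloid cells. It stood at 12.8, 13.3, 8.58, 2.88 and 26.3 CPM in SWNT-SHP1i replicates 1, 2, 3, 5 and 6, and at 10.6, 4.01, 3.3, 4.94 and 5.36 CPM in SWNT replicates 1 to 5. Replicates 1, 2 and 6 were above every SWNT library, and replicate 5 was under all of them. Its log2 fold change was 1.17 ± 0.5 (95% interval 0.08 to 2.27), and it was 0.73 without SWNT-SHP1i replicate 6. The B cell genes MS4A1, which encodes CD20, and PAX5, the B lineage factor, averaged 1.36 and 0.517 CPM in SWNT-SHP1i and 0.799 and 0.322 CPM in SWNT. The 11 B and plasma cell markers had a median log2 fold change of 0.08, with 6 positive and 5 negative. The 3 most abundant, JCHAIN, CD22 and MZB1, had -0.13 ± 0.41, 1.04 ± 0.45 and -0.15 ± 1.1, and CD22 gave 0.72 without SWNT-SHP1i replicate 6. With the mean of these markers, the log2 CPM of BTK had a Pearson r of 0.7, the highest of the 8 genes. That r was 0.59 without SWNT replicate 1 and SWNT-SHP1i replicate 6. The part of B cells in the BTK level was not tested.

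PTK2B and SKAP2 complete the set on the integrin side. PTK2B (ENSSSCG00000009664; chromosome 14, plus strand, 11064492 to 11194192), also called PYK2, is a calcium-responsive relative of focal adhesion kinase. Its level was 111, 64.6, 99.9, 30 and 201 CPM in SWNT-SHP1i replicates 1, 2, 3, 5 and 6, and 47.2, 62.3, 43.4, 48.7 and 38.5 CPM in SWNT replicates 1 to 5. Here 4 of 5 SWNT-SHP1i libraries lay above the highest SWNT library, replicate 2 only narrowly, and replicate 5 lay under the lowest. The log2 fold change was 1.08 ± 0.39 (95% interval 0.22 to 1.93), and it was 0.67 without SWNT-SHP1i replicate 6. PTK2, which encodes focal adhesion kinase itself, averaged 92.9 CPM in SWNT-SHP1i and 106 CPM in SWNT, a log2 fold change of -0.2 ± 0.17.

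SKAP2 (ENSSSCG00000016708; chromosome 18, plus strand, 45637360 to 45790259) is a substrate of Src family kinases that links them to actin and integrins. It stood at 18.1, 27, 14.3, 10.3 and 27 CPM in SWNT-SHP1i replicates 1, 2, 3, 5 and 6, and at 17.2, 12.4, 13, 12.9 and 11.9 CPM in SWNT replicates 1 to 5. Replicates 2 and 6 were the highest, and SWNT replicate 1 stood clear of the other 4 SWNT animals. The log2 fold change was 0.52 ± 0.28 (95% interval -0.09 to 1.13). It was 0.37 without SWNT-SHP1i replicate 6 and equally 0.37 without SWNT-SHP1i replicate 2. SKAP1, the T cell relative, averaged 1.56 CPM in SWNT-SHP1i and 1.45 CPM in SWNT.

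**Figure D2:**
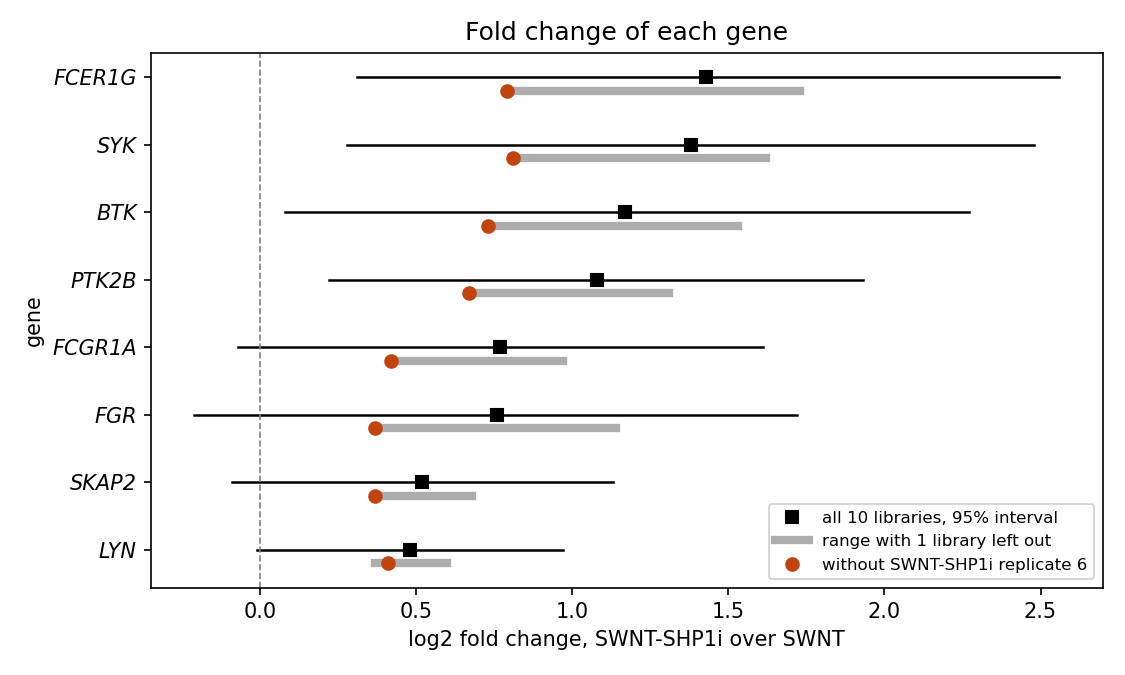
Log2 fold change of SWNT-SHP1i over SWNT (horizontal axis) for each of the 8 genes with its 95% interval, the range of values with 1 library left out (grey bars) and the value without SWNT-SHP1i replicate 6 (circles). All 8 values stay positive in every such fit, and for all but LYN and SKAP2 the value without replicate 6 alone sets the lower end, from 0.37 for FGR to 0.81 for SYK.

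Of the 8 genes, 0 had groups that did not overlap, beside 0.0816% of all genes with every SWNT-SHP1i library above every SWNT library. For 7 of the 8, at least 3 of 5 SWNT-SHP1i libraries lay above the highest SWNT library, beside 10.7% of all genes, and FGR was the exception with 2. SWNT-SHP1i replicate 5 was the lowest of all 10 libraries for BTK, PTK2B, SKAP2, FCER1G and FCGR1A. It was the only overlapping SWNT-SHP1i library for PTK2B, FCER1G and FCGR1A, whereas for the other 5 genes at least 1 more lay under the highest SWNT library. Leaving it out gave log2 fold changes of 0.6 for LYN to 1.7 for FCER1G, all 8 with an unadjusted p under 0.05. In that fit 1583 of 16173 genes had such a p in either direction, against 739 of 15930 with all libraries, and no gene passed after adjustment. Its macrophage markers summed to 524 CPM, the lowest of the SWNT-SHP1i group and within the range of 497 to 1460 CPM in SWNT.

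Per kilobase of exon, FCER1G was the most abundant of the 8 in both groups, at 74.9 ± 63.3 CPM per kb in SWNT-SHP1i and 27.7 ± 11.9 CPM per kb in SWNT (SD, n = 5). PTK2B came next, at 22.9 ± 14.5 CPM per kb in SWNT-SHP1i and 10.9 ± 2.01 CPM per kb in SWNT, and FGR followed at 9.6 ± 5.66 and 5.67 ± 3.35 CPM per kb in those groups. In SWNT-SHP1i the rest followed as SKAP2 (6.27), LYN (5.94), BTK (4.82), FCGR1A (3.98) and SYK (3.73 CPM per kb), and neighbours in that order overlapped in range. In SWNT the order was SKAP2 (4.37), LYN (4.26), FCGR1A (2.33), BTK (2.13) and SYK (1.43 CPM per kb). There, the ranges of neighbours did not overlap between FCER1G and PTK2B or between LYN and FCGR1A, and the other neighbours overlapped. In each of the 10 libraries FCER1G was above PTK2B.

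The 8 genes varied together over the 10 libraries. The 28 pairwise Pearson correlations of log2 CPM ran from 0.56 for FGR with LYN to 0.95, with a median of 0.83. The pairs at 0.95 were SYK with FCER1G, BTK with FCER1G, and PTK2B with FCGR1A. These values describe 10 libraries that share the treatment difference and the high SWNT-SHP1i replicate 6. Among 13586 other named genes, those most like the mean of the 8 were ACP5, the tartrate-resistant acid phosphatase (r = 0.987), the lipopolysaccharide co-receptor CD14 (0.986), SHISA5 (0.977), the macrophage growth factor receptor CSF1R (0.976), RAB7B (0.974) and the complement factor properdin, CFP (0.973). For single genes, the nearest profile to FCER1G was CD14 (0.987), and the nearest to SYK was UNC93B1 (0.992), which carries nucleic acid-sensing Toll-like receptors.

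FGR had a different set of neighbours. The genes most like it were JAG2, a Notch ligand (r = 0.965), and ADAM15 (0.964), and its level moved with the endothelial markers. With the mean of 8 endothelial markers FGR had an r of 0.8 (Spearman's rho 0.79), and 0.72 without the 2 libraries farthest from the median of those markers, SWNT replicates 2 and 3. For the other 7 genes that r lay between 0.05 for PTK2B and 0.48 for SKAP2, and that of LYN was 0.19. Without SWNT replicates 2 and 3, however, LYN gave 0.65 and SKAP2 0.7, close to FGR, so the low value of LYN rests on those libraries. SWNT replicate 3, the control with the most FGR, had the highest endothelial marker mean of all libraries (7.06 log2 CPM), while its macrophage marker mean (3.6 log2 CPM) was lower than in 8 of the other 9. The difference between these correlations was not tested, and neither was the part of endothelial RNA in the FGR level. The endothelial markers themselves had a median log2 fold change of 0.3, with 5 of 8 positive, and of 0.03 with 4 of 8 positive without SWNT-SHP1i replicate 6. They had a summed level of 650 to 1610 CPM in SWNT-SHP1i and 535 to 1610 CPM in SWNT.

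**Figure D3:**
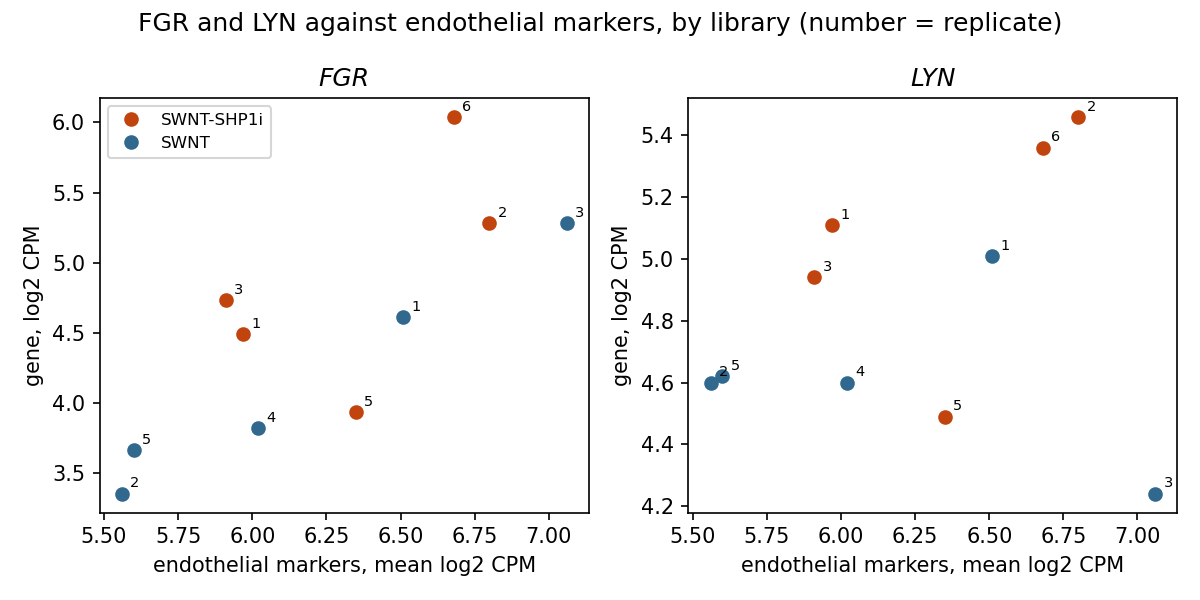
Log2 CPM of FGR (left) and LYN (right) on the vertical axis against the mean log2 CPM of 8 endothelial markers on the horizontal axis, 1 point per library with its replicate number. FGR is higher in libraries with more endothelial signal, including SWNT replicate 3 at 7.06, whereas LYN is lowest in that library.

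Macrophage markers were higher in SWNT-SHP1i together with these genes. All 18 markers had positive fold changes with a median log2 fold change of 1.3, and 14 of them had an unadjusted p under 0.05, beside 3.49% of all genes. Without SWNT-SHP1i replicate 6 the median was 0.88 and 5 had such a p, beside 419 of 16192 genes that were higher. Without replicates 3 and 6 the median was 0.75 and 2 had such a p, beside 291 of 16576 genes that were higher. Their summed level was 524 to 3040 CPM (median 1730) in SWNT-SHP1i and 497 to 1460 CPM (median 665) in SWNT, led by C1QB, CSF1R and C1QC. The mean macrophage marker level had an r of 0.97 with BTK, 0.96 with FCER1G, 0.93 with SYK and 0.93 with LYN, 0.9 with SKAP2, 0.85 with FCGR1A, 0.81 with PTK2B and 0.73 with FGR. Without the 2 libraries farthest from the median of that mean, SWNT-SHP1i replicate 6 and SWNT replicate 2, these values were 0.8 to 0.95 for 7 of the genes and 0.45 for FGR. Set against the macrophage marker mean in the same library, none of the 8 genes had a higher mean ratio in SWNT-SHP1i. The log2 ratio to that mean differed by -0.09 for FCER1G and -0.12 for SYK. For BTK it differed by -0.22, for PTK2B by -0.35, for FGR by -0.44 and for FCGR1A by -0.59. The FGR difference rests on SWNT replicate 3, at 1.68. The other SWNT libraries lay at -0.45 to -0.11, beside a mean of -0.32 in SWNT-SHP1i. The ratio of LYN was -0.14 ± 0.65 in SWNT-SHP1i and 0.59 ± 0.43 in SWNT (difference -0.73), and that of SKAP2 was -1.03 ± 0.5 in SWNT-SHP1i and -0.28 ± 0.45 in SWNT (difference -0.75, SD, n = 5). The groups overlapped in every one of these ratios, and the part of macrophage number in the gene levels was not tested.

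**Figure D4:**
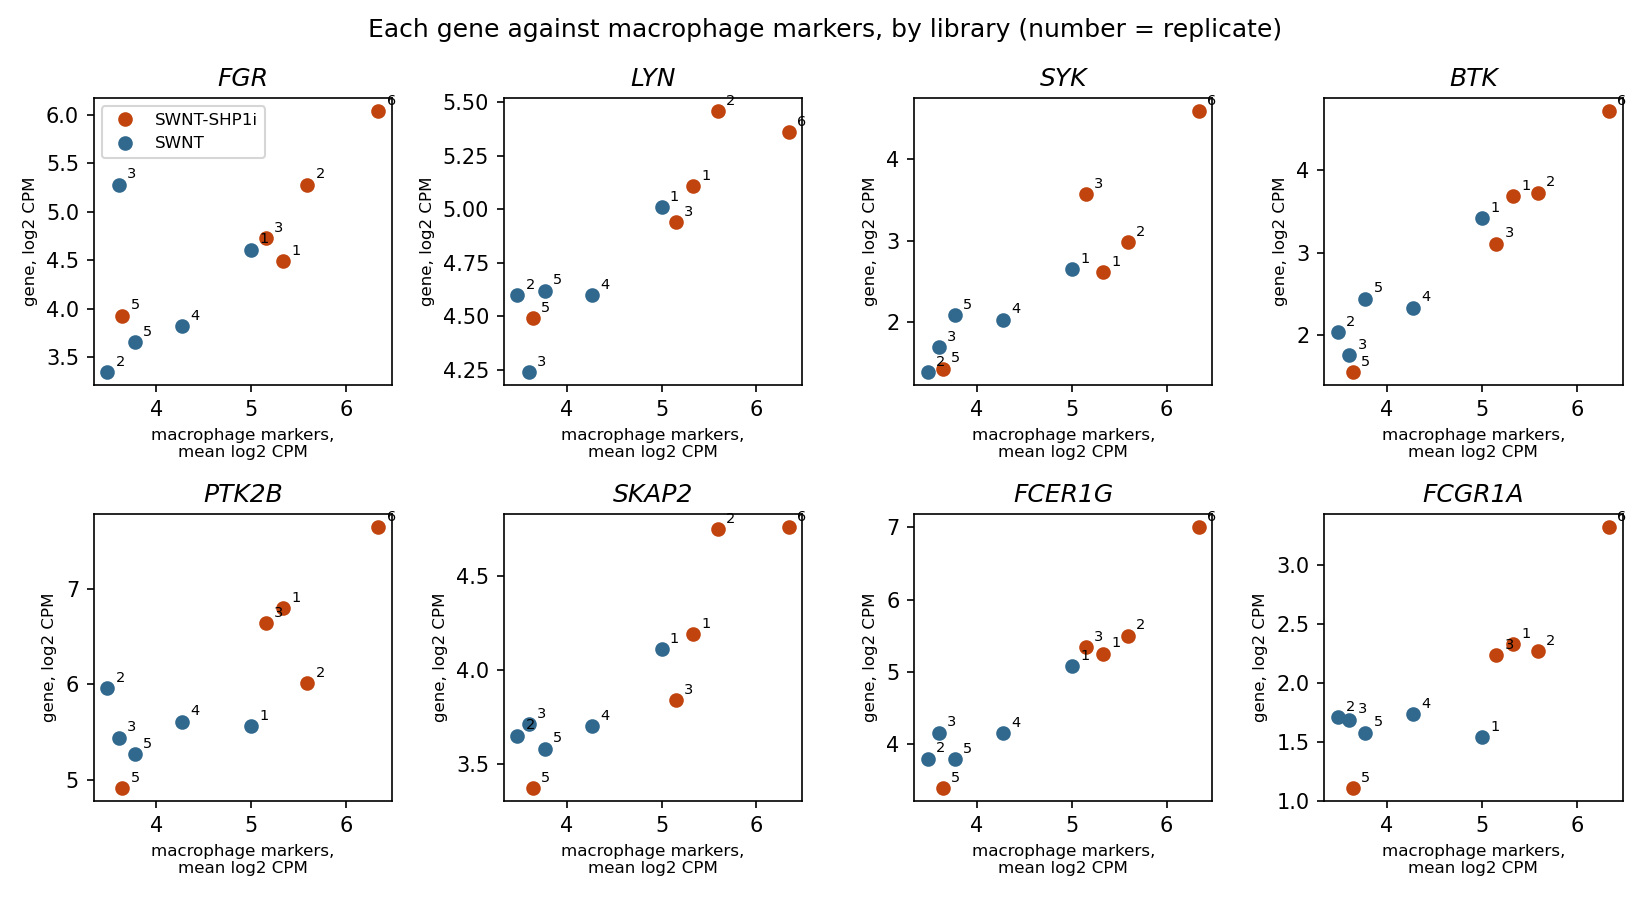
Log2 CPM of each of the 8 genes (vertical axes) against the mean log2 CPM of 18 macrophage markers (horizontal axes), 1 point per library with its replicate number. SWNT-SHP1i replicate 6 is at the upper right of each panel and SWNT-SHP1i replicate 5 among the SWNT animals, and in the FGR panel SWNT replicate 3 lies above the run of the other points.

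Other leukocyte markers moved less evenly. All 8 neutrophil markers tested were positive with a median log2 fold change of 2.95. S100A12 (mean 3.42 CPM in SWNT-SHP1i and 0.473 CPM in SWNT), MPO and LTF did not pass the filter on counts and were not tested. All 11 together summed to 5.43 to 355 CPM in SWNT-SHP1i and 6.38 to 16.8 CPM in SWNT. MMP9 alone was at 221 CPM in SWNT-SHP1i replicate 6, the library with the highest sum. The median of the 8 was 1.77 without SWNT-SHP1i replicate 6. Without SWNT-SHP1i replicates 3 and 6 their median was 0.6, with 5 of 8 positive. PTK2B and FCGR1A had the highest correlation with the neutrophil marker mean (0.91 and 0.87), and 0.78 and 0.72 without those 2 libraries. T and NK cell markers had a median of -0.04 with 5 of 10 positive, platelet markers of 0.32 with 4 of 5 positive, and mast cell markers of -0.03 with 2 of 5 positive. The T and NK cell median was -0.42, with 3 of 10 positive, without SWNT-SHP1i replicate 6. The mast cell protease CPA3 was at 0 counts in all libraries. Of the wall cells, smooth muscle markers were negative in 8 of 8 genes (median -0.68), with sums of 17200 to 43800 CPM in SWNT-SHP1i and 36100 to 54000 CPM in SWNT. Each of the 8 genes was lower in libraries with more smooth muscle signal, with r from -0.93 for SYK and FCER1G to -0.72 for FGR over the 10 libraries. Without the 2 libraries farthest from the median of those markers, SWNT-SHP1i replicate 6 and SWNT replicate 5, r was -0.36 for FGR, -0.52 for SKAP2 and -0.9 to -0.69 for the other 6. Fibroblast markers were positive in 8 of 8 (median 0.4), summing to 48200 to 75000 CPM in SWNT-SHP1i and 26800 to 55200 CPM in SWNT. The part of these cells in the 8 genes was not tested.

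The remaining Src and Tec family kinases did not share the pattern as a list. Of 13 listed, 11 could be tested, 6 were positive and 5 negative, and the median log2 fold change was 0.08. With 1 library left out the median ran from -0.01 (SWNT-SHP1i replicate 1 out) to 0.16 (SWNT-SHP1i replicate 5 out). The widely expressed members SRC (0.08 ± 0.17), FYN (0.26 ± 0.24) and YES1 (0.4 ± 0.3) had log2 fold changes under 0.48, the lowest of the 8 genes. YES1 gave 0.53 without SWNT-SHP1i replicate 6, above LYN, FCGR1A, FGR and SKAP2, and limma-voom gave 0.76. The T cell kinase TXK had -1.63 ± 1.04, and -0.98 without SWNT replicate 3. Its level was very low, at a mean of 0.329 CPM in SWNT-SHP1i and 1.02 CPM in SWNT, with 270 counts over all libraries. Of this list 0 passed the test over all genes.

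The other Fc receptors, ITAM receptors and adaptors were positive in 11 of 11 genes tested, with a median of 0.9 and 0 called over all genes. TYROBP, also called DAP12, the ITAM adaptor that works beside FCER1G, averaged 60.5 ± 78.5 CPM in SWNT-SHP1i and 16.7 ± 5.94 CPM in SWNT, a log2 fold change of 1.85 ± 0.67. TREM2, the lipid receptor that signals through it, had 3.47 ± 1.16, and FCGR3A, the low-affinity receptor that signals through FCER1G, had 1.01 ± 0.43. The inhibitory receptor FCGR2B had 0.38 ± 0.44. FCGR3A and FCGR2B, like ITGAX and SIRPA below, were named from their position, and reads of like copies in this receptor family may be shared. Without SWNT-SHP1i replicate 6 TYROBP gave 0.62, TREM2 1.93 and FCGR3A 0.44, with 8 of 11 genes positive and a median of 0.39. SIGLEC1, the sialic acid receptor CD169, differed from these in depending little on that library. Its log2 fold change was 0.93 ± 0.38 with all libraries and 0.91 without replicate 6. It stood at 17.4, 13.5, 14, 3.99 and 13 CPM in SWNT-SHP1i replicates 1, 2, 3, 5 and 6, against 4.47 to 11.2 CPM in SWNT.

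Among the effectors that act after SYK, 21 of 24 genes were positive, with a median of 0.37 and 0 called. The largest were those of adaptors and exchange factors of blood cells, namely LAT2 (1.53 ± 0.63), CARD9 (1.39 ± 0.6), SH3BP2 (1.29 ± 0.48) and VAV1 (1.24 ± 0.56). Without SWNT-SHP1i replicate 6 they gave 0.3, 0.37, 0.53 and 0.52, and the median was 0.21. PLCG2, the phospholipase that SYK and BTK act on, had 0.27 ± 0.28, and the ubiquitin ligase CBL, which marks active SYK for breakdown, -0.29 ± 0.37. The leukocyte integrin list had a median of 0.54 with 6 of 8 positive and 0 called. The highest were the integrin activator FERMT3 (1.62 ± 0.59), the common beta chain ITGB2 (1.46 ± 0.56) and the alpha chain ITGAX (1.06 ± 0.5), while the alpha chains ITGAM (0.23 ± 0.28) and ITGAL (0.2 ± 0.24) were lower. The median was 0.35 without SWNT replicate 3, 0.82 without SWNT replicate 1, and 0.24 when only animals with B9 numbers were used. Without SWNT-SHP1i replicate 6 FERMT3, ITGB2 and ITGAX gave 0.6, 0.6 and 0.47. Talin, TLN1, abundant in smooth muscle, had -0.44 ± 0.28.

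A list of phosphatases, kinases, adaptors and ITIM receptors, drawn up as restraining the pathway, was positive in 15 of 21 genes tested. Its median was 0.37, with 0 called. Some of the listed phosphatases, PTPN11 among them, can also promote signalling, so the list does not measure restraint alone. PTPN6, which encodes the drug's target SHP-1, stood at 30.7, 39.8, 28.7, 12 and 123 CPM in SWNT-SHP1i replicates 1, 2, 3, 5 and 6, and at 28.5, 13.1, 13.6, 18.5 and 19 CPM in SWNT replicates 1 to 5. It had a log2 fold change of 1.34 ± 0.51 with all libraries and 0.58 without SWNT-SHP1i replicate 6. SIRPA, whose ITIM recruits SHP-1, gave 0.98 ± 0.37 and 0.47, DOK3, an adaptor that binds the lipid phosphatase SHIP1, 2.6 ± 0.86 and 0.91, and PTPN18 1.34 ± 0.49 and 0.84, each with all libraries and then without replicate 6. CSK, the kinase that phosphorylates the inhibitory tail tyrosine of Src family kinases, averaged 81.1 ± 51.3 CPM in SWNT-SHP1i and 60.6 ± 7.52 CPM in SWNT (SD, n = 5). Its log2 fold change was 0.42 ± 0.33 with all libraries and -0.05 without SWNT-SHP1i replicate 6. PTPN11, the related phosphatase SHP-2, had -0.12 ± 0.38. Without SWNT-SHP1i replicate 6 the median of this list was 0.12.

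**Figure D5:**
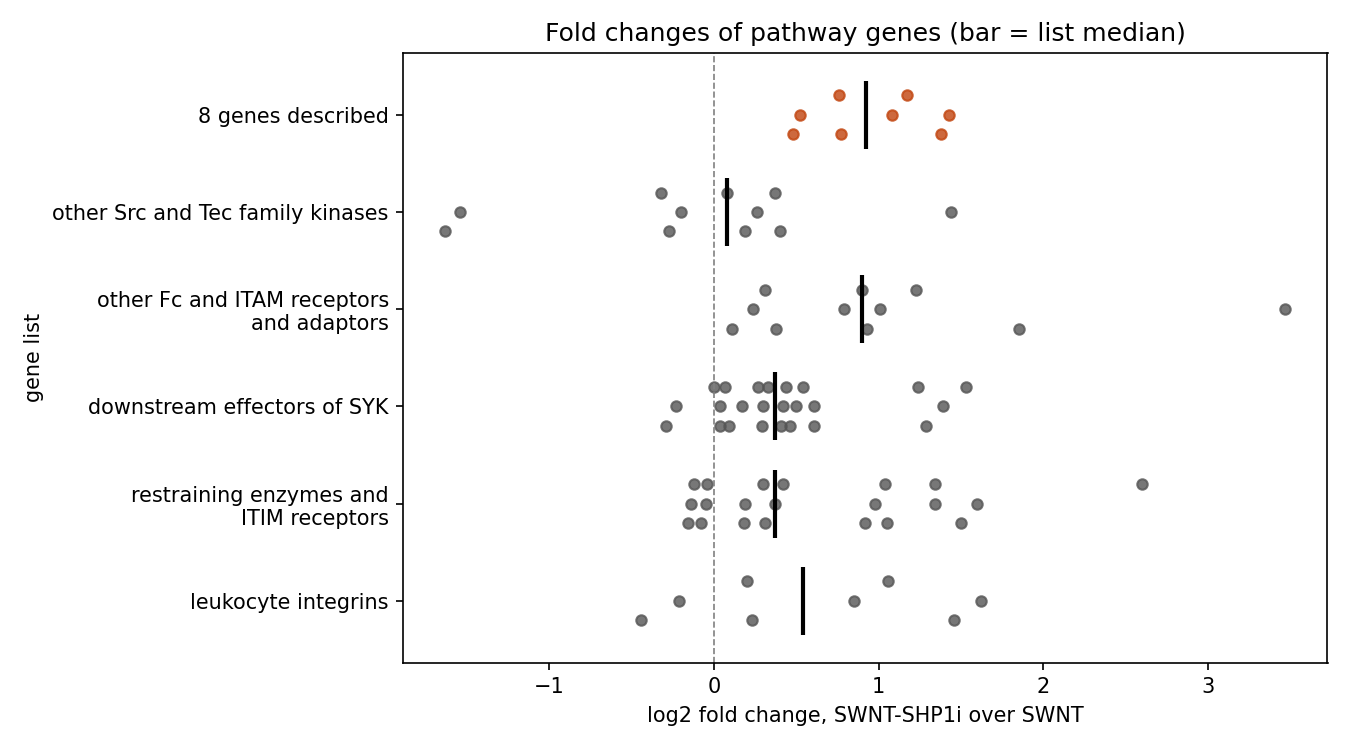
Log2 fold change of SWNT-SHP1i over SWNT (horizontal axis) for every tested gene of the 8 described (orange) and of 5 lists of related pathway genes (grey), with a bar at each list's median. The medians are 0.92 for the 8 genes, 0.08 for other Src and Tec family kinases and 0.9 for other Fc and ITAM receptors and adaptors. They are 0.37 for effectors of SYK and 0.54 for leukocyte integrins. The list labelled as restraining, not all of whose phosphatases only restrain the pathway, has 0.37.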

How the data were processed

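Read counts per gene were deposited by the authors as 1 table of raw counts without normalization. Trim Galore, STAR and DESeq2, with the build Sscrofa11.1, are named in the submitters' processing notes. No source used here gives the counting program, the strand setting or the release of the annotation. No exon of the 8 genes overlapped an exon of another gene in the table. Exon coordinates and length per gene stand beside the counts, per the file headers. Names missing from it were taken from a table of identifiers (223 genes) or by position from RefSeq annotation of that build (842 genes, overlap at least 0.5 of the union).

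Libraries were numbered in accession order, which pairs no animals. The labels call them separate animals. Pairs within a group had a median chi-square per gene of at least 6.12 (0.45 from sampling noise), so all 10 were kept. Genes passing filterByExpr (minimum count 10; 15930 genes, all 8 among them) were scaled by TMM and tested with the robust quasi-likelihood fit of edgeR 4.0.16 (R 4.3.3) with group as the only term. P-values were adjusted by Benjamini-Hochberg over the whole table, with a threshold of 0.05. On simulated data of 15475 genes for this comparison, the test recovered 18% of genes changed by a log2 fold change of 1, and 70.8% at 2, 83.3% at 3 and 95.8% at 4. It also called 11 genes that were not changed. The simulation drew each gene independently and held no library that stands apart, so these shares may not hold for the libraries analysed. The standard error (SE) is the absolute log2 fold change over the square root of F. Log2 CPM used a prior count of 2. CPM uses TMM-scaled library sizes, and CPM per kb divides by exon length. Alternatives were run with DESeq2 1.42.0 and limma 3.58.1, other scalings and filters, the range of animal numbers and libraries left out. The genes, lists, alternatives and the rule for named genes were chosen with earlier results of these data known. That rule takes the 8 genes, PTPN6, CSK, the 4 genes with the smallest p of each pathway list, the 3 most abundant markers of each cell type, and the genes nearest in profile. Some genes the rule takes are not reported here. The other genes named (PTK2, SKAP1, ITGAM, ITGAL, SRC, FYN, FCGR2B, PLCG2, CBL, PTPN11, MS4A1, PAX5, S100A12 and markers at or near 0) were chosen after their values were seen, and the endothelial comparison was too. Lists share some genes, namely BLK, CD22, CD247, FCER1A, GP6, PECAM1 and TYROBP.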

Additional observations from a re-analysis of the deposited data

Results flagged for a closer look

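In groups of 5 libraries, the gap between the highest or lowest library and its neighbour was compared with the range of the group on the log2 CPM scale. Of 58 groups tested, 5 had a library past Dixon's critical value of 0.71, where chance gives about 1 in 20. SWNT replicate 1 stood above the other SWNT libraries for SKAP2 (17.2 CPM against 11.9 to 13 CPM), for FCER1G (33.9 CPM against 13.8 to 17.8 CPM) and for SIRPA (70.1 CPM against 36.8 to 39 CPM). That animal also had the highest macrophage marker sum of the SWNT group, 1460 CPM, and its part in these levels was not tested. SIGLEC1 was at 3.99 CPM in SWNT-SHP1i replicate 5, against 13 to 17.4 CPM in the other 4 SWNT-SHP1i libraries. TREM2 was at 0 CPM in SWNT replicate 3, against 1.06 to 2.39 CPM in the other SWNT libraries.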

How the results depend on the processing

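The fold changes of the 8 genes stayed positive and uncalled in all alternatives run. Their median was 0.92 as reported and ran from 0.54 (without SWNT-SHP1i replicate 6) to 1.14 (without SWNT-SHP1i replicate 5) with 1 library left out. It was 0.64 with limma-voom and 0.46 without SWNT-SHP1i replicates 3 and 6. The number of the 8 at an unadjusted p under 0.05 was 4 as reported, ran from 0 (without SWNT-SHP1i replicate 6) to 8 (without SWNT-SHP1i replicate 5), and was 2 over the 4 animals a group with B9 numbers and 0 without SWNT-SHP1i replicates 3 and 6. Over all genes and in either direction, such a p was held by 739 of 15930 genes as reported, 738 of 16192 without replicate 6, 1583 of 16173 without replicate 5, 539 of 16048 over B9 animals and 534 of 16576 without replicates 3 and 6. Over those B9 animals FGR gave 1.21. Over all genes, DESeq2 called 1 gene, NUGGC, where edgeR called 0. CSK was 0.42 as reported and reversed in leave-one-out fits, which ran from -0.05 (SWNT-SHP1i replicate 6 out) to 0.58 (replicate 5 out). It was -0.05 with replicates 3 and 6 out. The counts of positive genes per list without those libraries were chosen after seeing the data. The cause of these shifts was not tested. No paired analysis was possible because the replicate numbers only follow accession order. SYK, BTK and FCGR1A had as few as 70 to 96 counts in a library, so their low values carry the most counting error.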
